A study of Mus musculus with 72 samples.

Results

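Connexins are the proteins from which gap junction channels are built, and 4 connexin genes known from the heart were followed here in every library of the series: Gja1 (connexin 43), Gja4 (connexin 37), Gja5 (connexin 40) and Gjc1 (connexin 45). They were chosen by name, and all 4 were found among the 24237 genes of the count table and passed the filter on low counts in all fits. The series holds 72 libraries of heart tissue from adult mice, made separately from the right atrium, the left atrium or the ventricles, and they fall into 24 groups of 3 by condition (4), chamber (3) and sex. The conditions were naïve Ahr+/+ mice of the C57BL/6J strain, whose dams received corn oil, Ahr-/- mice, which lack the aryl hydrocarbon receptor (AHR) in every cell of the body and were not exposed, and Ahr+/+ mice exposed in utero, through gavage of the dam, to the dioxin TCDD, an AHR ligand, at 0.1 μg/kg (low dose) or 1 μg/kg (high dose). The labels give doses without a unit, name TCDD as the treatment of all 72 samples and give an age of 9 months, whereas the methods describe unexposed naïve and Ahr-/- mice and an age of 10 months. Per the study's methods the hearts of 3 mice per sex and condition were divided into the 3 chambers and sequenced as biological triplicates, and no label ties a library to a mouse, so libraries of different chambers share hearts that could not be matched.

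A gap junction channel is made of a hexamer of connexins in each of the adjoining cell membranes, and through it ions and small molecules pass directly from cell to cell. In the heart these channels sit mostly in the intercalated discs, where they carry the action potential from myocyte to myocyte. Connexin 43 is the main connexin of the working myocardium of atria and ventricles. Connexin 40 is known from atrial myocytes, from the fast-conducting His-Purkinje system and from arterial endothelium, connexin 37 from endothelium, and connexin 45 from nodal tissue, where its channels conduct slowly, and at a low level from working myocardium. In tissue RNA such as this, fewer cells of a type and less RNA per cell cannot be told apart.

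The sources of these transcripts lie on 4 chromosomes of the mouse genome (RefSeq positions, build GRCm38.p6). Gja1 is at chr10:56377300-56390419, Gja4 at chr4:127311420-127314039, Gja5 at chr3:97032402-97053634 and Gjc1 at chr11:102799477-102819686.

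Because the study disrupts AHR, the bases upstream of the genes were searched for the core of the AHR response element, GCGTG, on both strands. RefSeq promoter sequence was at hand for Gja1, Gja4 and Gja5, and the 250 bases before each start are shown 5′ to 3′ on the strand of the gene, with the core in capitals. The windows are chr10:56377050-56377299 on the plus strand for Gja1, chr4:127314040-127314289 on the minus strand for Gja4 and chr3:97032152-97032401 on the plus strand for Gja5, all in GRCm38.p6.
Gja1: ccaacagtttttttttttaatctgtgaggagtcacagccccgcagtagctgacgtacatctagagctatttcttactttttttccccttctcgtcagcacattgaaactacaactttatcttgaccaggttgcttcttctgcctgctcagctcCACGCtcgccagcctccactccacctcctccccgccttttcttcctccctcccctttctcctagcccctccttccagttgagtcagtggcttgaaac
Gja4: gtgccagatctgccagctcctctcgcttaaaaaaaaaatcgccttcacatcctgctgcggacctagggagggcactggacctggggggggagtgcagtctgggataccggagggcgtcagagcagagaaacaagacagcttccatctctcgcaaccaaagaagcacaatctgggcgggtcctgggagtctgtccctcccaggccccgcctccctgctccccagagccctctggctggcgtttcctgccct
Gja5: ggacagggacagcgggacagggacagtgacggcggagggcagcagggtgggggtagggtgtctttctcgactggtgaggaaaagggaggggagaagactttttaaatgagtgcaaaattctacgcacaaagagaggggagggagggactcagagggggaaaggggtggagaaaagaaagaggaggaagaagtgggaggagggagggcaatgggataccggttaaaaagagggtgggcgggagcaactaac
The core was found 1 time before Gja1, as CACGC on the strand shown, and its letters were not in the windows of Gja4 and Gja5. Of 32851 mouse promoters of the same length, 28.2% hold it. The letters GGTGTGA of the T-box site, in 3.33% of all promoters, and TNAAGTG of the NK2 element, in 10.1%, both searched on both strands, were in none of the 3 windows. A match is a string of letters and no evidence of binding.

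Several libraries went against their labels, and the main results are given with and without the libraries whose Myl4 goes against the labelled chamber. Levels are given as CPM, the count of a gene relative to all counts of its library. Myl4, the atrial essential light chain of myosin, was at 621 CPM or above in 40 libraries labelled atrium, but at 2.21 to 48.7 CPM in 8 others, which were libraries 4 and 11 of the right atrium and 23, 24, 51, 57, 63 and 69 of the left. It was at 167 to 3533 CPM in 7 libraries labelled ventricles, which were 35, 45, 46, 53, 59, 65 and 71, and at most 93.3 CPM in the other 17. Many libraries with an atrial Myl4 level also held Myl2, the ventricular light chain. Its median was 1849 CPM (9.53 to 3607) in the right atrial and 2262 CPM (8.04 to 5533) in the left atrial ones. In the 17 ventricular libraries with low Myl4 it was 3966 CPM (2734 to 10905). The part of this in the atrial connexin levels was not tested. Xist and the Y-linked genes went against the labelled sex in 8 libraries, labelled female right atrium (50, 56, 62 and 68) or male ventricles (53, 59, 65 and 71). All 8 are among the libraries from 49 on, and both sets recur in every condition. The low-Myl4 libraries 51, 57, 63 and 69, labelled male left atrium, recur in the same way. Bmp10, a gene of the right atrium, was at or below 50 CPM in 8 of the 22 right atrial libraries with an atrial Myl4 level and above it in 5 of the 18 left atrial ones. Leaving out libraries by Myl4 keeps these atria, and it keeps libraries 50, 56, 62 and 68, so it does not settle all labels. Ahr itself was at 2.00 to 9.23 CPM in the Ahr-/- libraries and at 8.59 to 30.8 CPM in the naïve ones, and the table does not separate exons inside and outside the deletion. Library totals were 11873417 to 28789382 counts, and 3 counts, the limit that a count of 0 allows, are 0.253 to 0.104 CPM.

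Gja1 RNA was by far the most abundant of the 4, also when divided by length as given below. Scaled by library size with TMM factors (a correction for differences in RNA composition), Gja1 ranged from 293 to 897 CPM over the 72 libraries with a median of 500.4, Gja5 from 6.18 to 202 with a median of 45.0, Gjc1 from 15.8 to 40.5 with a median of 30.2, and Gja4 from 2.09 to 13.1 with a median of 7.15. Gja5 thus spanned a 32.6-fold range, against 3.06-fold for Gja1, 2.56-fold for Gjc1 and 6.26-fold for Gja4. The raw counts behind these levels were 5751 to 16101 for Gja1, 81 to 6298 for Gja5, 313 to 955 for Gjc1 and 59 to 278 for Gja4, so Gja4 rests on the fewest reads.

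**Figure D1:**
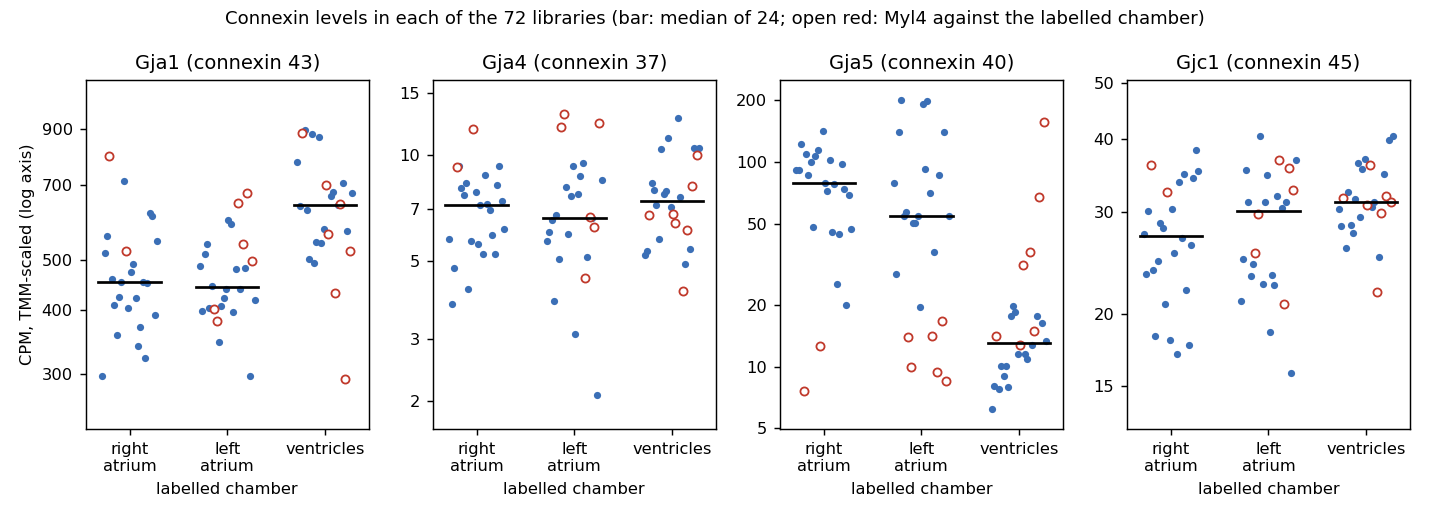
Level of each connexin in each of the 72 libraries by labelled chamber, in TMM-scaled CPM on a log axis; each point is a library, the black bar is the median of 24, and open red points are the 15 libraries whose Myl4 goes against the labelled chamber. The medians of Gja5 are 78.7, 54.4 and 13.1 CPM in right atrium, left atrium and ventricles, and the open points labelled left or right atrium lie at 7.63 to 16.8 CPM.

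To compare the genes with each other, CPM was divided by coding length, since reads on coding regions were counted. Per kilobase of coding sequence, Gja1 stood at 414 ± 105 CPM (SD, n = 24 libraries) in the right atrium, 409 ± 81.3 on the left side and 556 ± 131 in ventricular libraries. Gja5 followed in the atria with 66.3 ± 32.3 and 62.3 ± 54.6 CPM per kb, and had 20.1 ± 27.8 in the ventricles. Without the libraries whose Myl4 goes against the labelled chamber, Gja5 was at 71.5 ± 28.4 (n = 22), 79.4 ± 52.7 (n = 18) and 11.0 ± 3.79 (n = 17) CPM per kb, so its ventricular mean over all 24 was carried by a few of these libraries. Myl4 and Gja5 rise together over libraries, so here and below the Gja5 values without these libraries are a description. Gjc1 was at 22.9 ± 5.34, 23.9 ± 5.61 and 26.6 ± 3.79 CPM per kb in the same order of chambers.

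Gja4 came last by coding length, at 7.08 ± 1.92, 7.14 ± 2.77 and 7.68 ± 2.23 CPM per kb. Gja1 was the highest of the 4 in all 72 libraries. Gja5 was above Gjc1 in 20 of 24 right atrial and 17 of 24 left atrial libraries but in 3 of 24 ventricular ones, so the order of these neighbours changed with the chamber. Without the libraries in doubt these counts were 20 of 22, 17 of 18 and 0 of 17. Those libraries were left out by Myl4, which rises with Gja5, so the clearer split follows in part from the choice. Gjc1 was above Gja4 in every library of each chamber. Gja5 and Gja4 were close in the ventricles, where Gja5 was above Gja4 in 21 of 24 libraries, or 14 of 17 without those in doubt. This order holds for coding length only. Per kilobase of exon the ventricular mean of Gja4 was 4.55 CPM and that of Gja5 3.94, or 4.74 and 2.14 without those in doubt.

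As a share of the 4 connexins per coding length, Gja1 made up 80.5 ± 6.06% in the right atrium, 81.8 ± 8.19% in the left and 90.5 ± 5.95% in the ventricles (SD, n = 24 each). The share of Gja5 was 13.4 ± 6.36%, 11.8 ± 9.12% and 3.67 ± 5.17%. Gjc1 kept a share of 4.65 ± 1.38%, 4.91 ± 1.45% and 4.54 ± 1.18%, and Gja4 one of 1.44 ± 0.46%, 1.51 ± 0.75% and 1.31 ± 0.50%. Without the libraries whose Myl4 goes against the labelled chamber, Gja5 held 14.4 ± 5.46% (n = 22), 15.0 ± 8.28% (n = 18) and 1.81 ± 0.68% (n = 17).

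Chambers were then compared in a fit of all 72 libraries, averaged over the 8 groups of sex and condition. Gja5 was lower in ventricles than in either atrium, and Gja1 was higher. For Gja5 the log2 difference of ventricles minus right atrium was -2.01 (SE 0.33, edgeR quasi-likelihood adjusted p = 2.3e-05) and that of ventricles minus left atrium -1.78 (SE 0.33, adjusted p = 5.4e-04). For Gja1 the same differences were 0.43 (SE 0.094, adjusted p = 5.3e-04) and 0.44 (SE 0.094, adjusted p = 0.0015), in the direction opposite to Gja5. Of all 16688 genes tested, 29.9% were called at an adjusted p under 0.05 between ventricles and right atrium (13.6% higher and 16.3% lower) and 19.4% between ventricles and left atrium (7.39% higher and 12.0% lower).

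Gjc1 was called higher in ventricles than in the right atrium at 0.22 (SE 0.087, adjusted p = 0.049) and not called against the left atrium at 0.16 (SE 0.087, adjusted p = 0.19). That call is at the edge of the threshold: it was lost without any of libraries 1, 7, 10, 23, 40, 42, 46, 54, 55, 57, 61 and 63, 12 of the 20 libraries left out in turn, with adjusted p up to 0.074, and the difference was 0.031 when libraries were scaled by their totals alone. Gja4 differed by 0.10 (95% interval -0.15 to 0.36) and 0.11 (95% interval -0.14 to 0.37), neither passed the test, and both changed sign with scaling by totals alone (-0.090 and -0.024), which shifts the median of all genes to -0.23 and -0.18. In the naïve libraries alone the differences were -2.27 and -2.36 for Gja5 and 0.52 and 0.47 for Gja1, none of them called (adjusted p 0.13 to 0.35), in a fit of 15507 genes that called 1 gene between ventricles and right atrium and 0 between ventricles and left atrium. Gjc1 had the other sign there, at -0.14 and -0.15.

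Between the atria no connexin passed the test. Left minus right atrium was -0.23 for Gja5 (95% interval -0.87 to 0.41), -0.009 for Gja1 (-0.20 to 0.18), -0.012 for Gja4 (-0.27 to 0.24) and 0.061 for Gjc1 (-0.11 to 0.24), each with an adjusted p of 1.00. In this contrast 0.00599% of genes were called, which is 1 gene. When the atria whose Bmp10 goes against the labelled side were left out together with the libraries that Myl4 puts in doubt, a choice made after the data were seen, the difference of Gja5 was -0.55 (adjusted p = 0.19).

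Gja5 followed Myl4 rather than the label in the 8 low-Myl4 atria and in 4 of the 7 high-Myl4 ventricles, those above 19.8 CPM. In the 8 labelled atrium with low Myl4, Gja5 was at 7.63 to 16.8 CPM with a median of 11.3, inside the range of 6.18 to 19.8 CPM of the 17 ventricular libraries with low Myl4. The 7 labelled ventricles with high Myl4 had a lowest value of 12.8, a median of 31.5 and a highest value of 156 CPM. The right atrial libraries with atrial Myl4 lay at 20.1 to 142 CPM and the left atrial ones at 19.5 to 202 CPM, so that only the lower edge of the left atrium met the ventricles.

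Without the 15 libraries the log2 differences of ventricles minus right and left atrium were -2.78 and -2.66 for Gja5 and 0.54 and 0.64 for Gja1. Since Myl4 and Gja5 rise together over libraries, these values are a description. Over the 72 libraries the Pearson r of log2 CPM between Gja5 and Myl4 was 0.86, and it was 0.77 over the residuals from the 24 group means. Myl2, the ventricular light chain, had an r of -0.69 with Gja5.

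**Figure D2:**
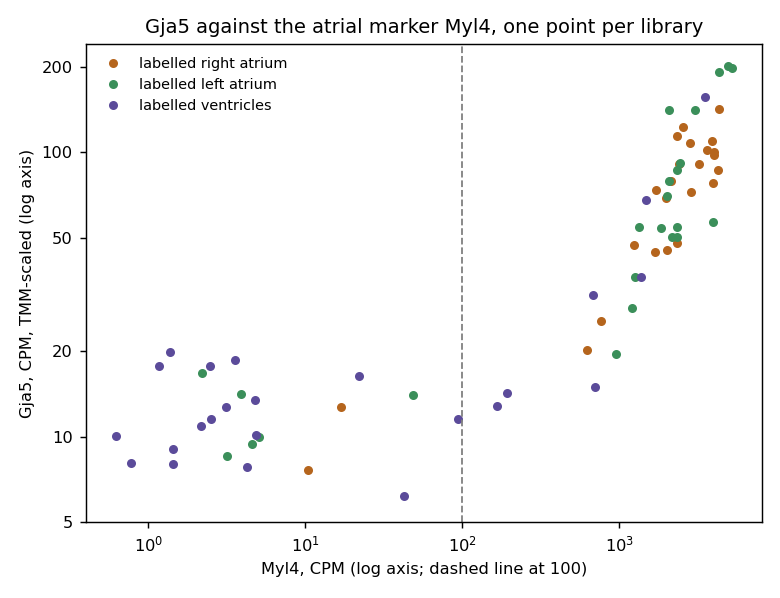
Gja5 (TMM-scaled CPM) against Myl4 (CPM) in each of the 72 libraries, both on log axes and coloured by the labelled chamber; the dashed line is at 100 CPM of Myl4. Libraries with Myl4 under the line lie at 6.18 to 19.8 CPM of Gja5 whatever their label, and those over it reach 202 CPM.

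Gja5 varied much more between the 3 libraries of a group than the other connexins did, with a median ratio of the highest to the lowest of 3.33, against 1.41 for Gja1, 1.59 for Gja4 and 1.31 for Gjc1. In naïve right atrium it was 91.0, 90.9 and 78.1 CPM in males, and 122, 7.63 and 25.4 CPM in females, where the value of 7.63 came from library 4, which has low Myl4, and 25.4 from library 50, which reads male. In naïve left atrium it was 78.9, 28.3 and 14.1 CPM in males (the last is library 51, with low Myl4) and 141, 202 and 36.5 CPM in females. The widest group was male left atrium at the low dose, with 192, 91.9 and 8.54 CPM, whose lowest value is library 69, again with low Myl4.

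In the ventricles of naïve mice Gja5 was at 6.18, 8.06 and 36.3 CPM in males and 14.2, 7.81 and 12.7 CPM in females. The highest values of the chamber were 156 CPM in library 71 at the low dose, 67.7 CPM in library 65 at the high dose, 36.3 CPM in the naïve library 53 and 31.5 CPM in library 46 at the low dose, all labelled male and all with Myl4 above 100 CPM. The other 20 ventricular libraries were at or below 19.8 CPM.

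Other members of the connexin and pannexin family were read from a list of 23 genes, 13 of which passed the filter in the fit of 72 libraries. Between ventricles and right atrium 2 were called higher (Gja1 and, at the edge of the threshold, Gjc1) and 7 lower, with a median log2 difference of -0.47 against -0.03 for all genes. Of all genes, 13.6% were called higher and 16.3% lower there. Between ventricles and left atrium 1 was called higher and 6 lower, with a median of -0.27 against -0.03, where 7.39% of all genes were called higher and 12.0% lower. Without the 15 libraries in doubt, 18 of the list were tested, and 2 were higher and 8 lower against the right atrium and 1 and 7 against the left, where 43.4% and 40.2% of all genes were called. The genes called lower with the smallest p in both contrasts were Gja5 and Panx2, with Gjb5 beside them against the right atrium and Panx1 against the left. Panx2 and Panx1 encode pannexins, which form channels in single membranes: Panx2 was at a median of 4.89, 4.40 and 1.25 CPM in right atrium, left atrium and ventricles and differed by -1.74 (SE 0.33, adjusted p = 1.5e-04) and -1.46 (SE 0.33, adjusted p = 0.0026). The differences of Panx2 without the 15 libraries were -2.45 and -2.40. Panx1 differed by -0.95 (SE 0.20, adjusted p = 3.2e-04) and -0.85 (SE 0.20, adjusted p = 0.0028). Gjb5 was at 0 counts in 19 libraries and reached at most 3.36 CPM, with a fitted difference of -2.98 from the right atrium that depends on how zeros are treated. Gja3 (connexin 46) was at 10.5 to 31.2 CPM with a median of 18.6, above the median of Gja4, and in ventricles its median of 16.4 CPM was above the 13.1 of Gja5.

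**Figure D3:**
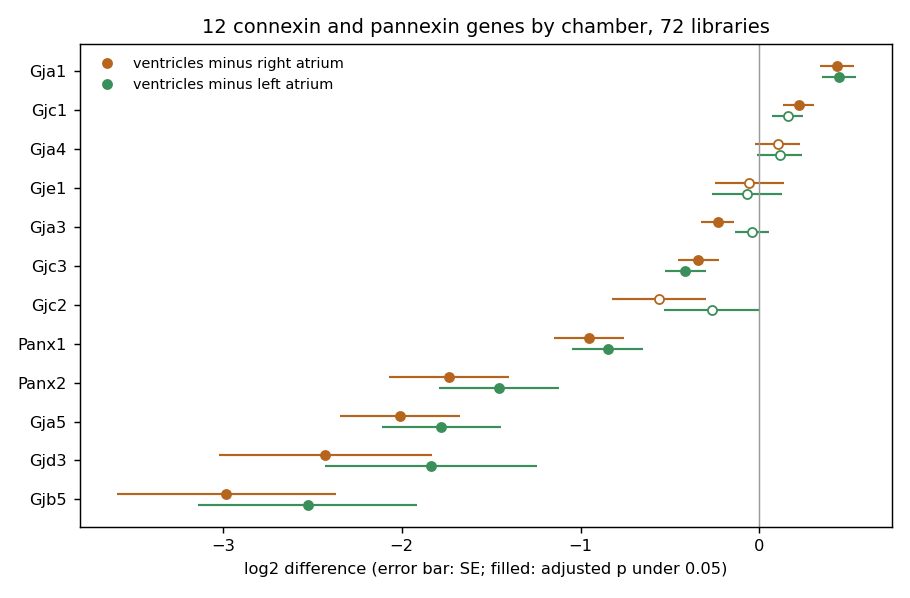
Log2 difference of ventricles minus right atrium (brown) and minus left atrium (green) for 12 connexin and pannexin genes in the fit of 72 libraries; error bars are SE and filled points have an adjusted p under 0.05. Gja1 lies at 0.43 and 0.44 and Gja5 at -2.01 and -1.78; Gja6, at 0 counts in 32 libraries, is not drawn.

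Genes that work beside connexins were read from 3 more lists. Of 22 genes of the intercalated disc, 12 were called higher in ventricles than in right atrium and 1 lower, with a median log2 difference of 0.20 against -0.03 for all genes, and 8 were higher and 1 lower against the left atrium, with a median of 0.20. The shares of all genes called were 13.6% higher and 16.3% lower against the right atrium, and 7.39% and 12.0% against the left. Cdh2 (N-cadherin) differed by 0.63 (adjusted p = 2.4e-04) from the right and 0.50 (adjusted p = 0.0052) from the left atrium, Dsp (desmoplakin) by 0.60 and 0.49, and Dsc2 (desmocollin 2), the one called lower, by -0.84 and -0.61. Without the 15 libraries 14 were higher and 1 lower against the right atrium and 16 and 1 against the left, with Cdh2 at 0.88 and 0.83. In those fits 43.4% and 40.2% of all genes were called. The direction of most of these genes was that of Gja1.

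Of 22 transcription factors known to act on connexin genes, 21 were tested. Between ventricles and right atrium 5 were called higher and 2 lower, and between ventricles and left atrium 2 and 2, shares close to the 29.9% and 19.4% of all genes, so the counts show nothing particular to the list. Without the 15 libraries they were 6 and 4, and 5 and 4, against 43.4% and 40.2% of all genes. Both lower ones were the same in each contrast: Tbx5, a T-box factor known to activate Gja5, at -1.50 (adjusted p = 3.5e-05) and -1.19 (adjusted p = 0.0016) against the right and left atrium, and Shox2, a factor of the sinus node, at -2.33 and -2.30 (-2.10 and -1.93 for Tbx5 without the 15 libraries). Irx3, known from the ventricular conduction system, where it acts on Gja1 and Gja5 in opposite directions, was higher at 1.11 (adjusted p = 0.0022) and 0.86 (adjusted p = 0.024), and Irx5 at 1.06 and 0.66 (1.58 and 1.37 for Irx3 without the 15 libraries). Of 17 genes for connexin kinases and trafficking, 3 were higher and 2 lower against the right atrium, among them Prkce at 0.42 (adjusted p = 2.2e-04) and Src, whose kinase phosphorylates connexin 43, at -0.52 (adjusted p = 0.013). This count is also close to the 29.9% of all genes. Without the 15 libraries it was 5 higher and 4 lower.

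The labelled sexes did not differ by this test in any of the 4 connexins, in a fit that holds the 8 libraries that go against their labelled sex. Female minus male, averaged over the 12 strata of chamber and condition, was 0.03 for Gja1 (95% interval -0.13 to 0.18), 0.23 for Gja4 (0.027 to 0.44, adjusted p = 0.62), -0.27 for Gja5 (-0.80 to 0.25) and 0.12 for Gjc1 (-0.018 to 0.27). Chambers of the same heart entered this fit as independent libraries, so these intervals can be too narrow for a contrast between mice. Of all genes 0.24% were called (0.0719% higher and 0.168% lower in females). Gja5 changed sign to 0.17 without the libraries whose Myl4 goes against the labelled chamber.

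The question of the study was whether the loss of AHR or exposure to its ligand before birth leaves a trace in the adult heart, and each condition was compared with naïve libraries of the same sex and chamber, 18 comparisons in all. Of the 72 values that the 4 connexins gave in them, 2 were called at an adjusted p under 0.05, both in female ventricles at the high dose. Over the 18 comparisons together 1.27% of gene values were called, and in female ventricles at the high dose 23.7% were, so that calls of members there sit in a wide change of the transcriptome. None of the 72 values passed 0.0001, the threshold used in the study. The 18 comparisons share naïve libraries in sets of 3.

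In those female ventricles Gja1 was at 540, 575 and 570 CPM after high-dose TCDD and at 884, 897 and 640 CPM in naïve mice. Its log2 fold change was -0.48 (SE 0.14, adjusted p = 0.024). Gjc1 moved the other way, at 35.5, 37.0 and 39.9 CPM after TCDD and 31.6, 26.0 and 25.0 CPM in naïve mice, a fold change of 0.48 on the log2 scale (SE 0.14, adjusted p = 0.026).

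Gja4 was at 11.2, 7.10 and 10.5 CPM against 6.76, 8.30 and 4.89 CPM and did not pass the test (log2 fold change 0.58, 95% interval 0.032 to 1.13, adjusted p = 0.12). Gja5 was at 18.6, 11.5 and 16.3 CPM against 14.2, 7.81 and 12.7 CPM (0.46, 95% interval -0.065 to 0.99, adjusted p = 0.19). Groups overlap for both of these genes. Of the 12.2% and 11.4% of all genes called higher and lower in this comparison, the family list held 2 and 1, the third being Gja3 at 0.56 (adjusted p = 0.036).

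The calls of Gja1 and Gjc1 rest on few libraries. That of Gja1 was lost without library 35, 36, 43 or 66, with fold changes of -0.41 to -0.49 and adjusted p of 0.069 to 0.11. That of Gjc1 was lost without library 36, 43, 54 or 66, with 0.43 to 0.51 and adjusted p of 0.051 to 0.12. Library 35, a naïve one, has a Myl4 level of 193 CPM. Scaled by totals alone, Gja1 changed by -0.67 and Gjc1 by 0.30, the latter no longer called (adjusted p = 0.31), and in a fit of all 24 groups neither was called (adjusted p 0.32 and 0.37).

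Markers of other cells also moved in female ventricles at the high dose. The 5 smooth muscle markers summed to 439 to 512 CPM against 286 to 403 CPM in naïve females, with 3 of 5 called higher. The 6 cardiomyocyte markers summed to 68832 to 102699 CPM against 47266 to 55012 CPM, with 4 called higher and 2 lower. The 8 endothelial markers summed to 1249 to 1436 CPM against 1028 to 1363 CPM, with 2 called higher and 2 lower. The totals of these libraries were 16736666 to 22766865 counts, and those of the naïve ones 12536847 to 18144457. The part of cell composition and depth in the connexin values was not tested.

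**Figure D4:**
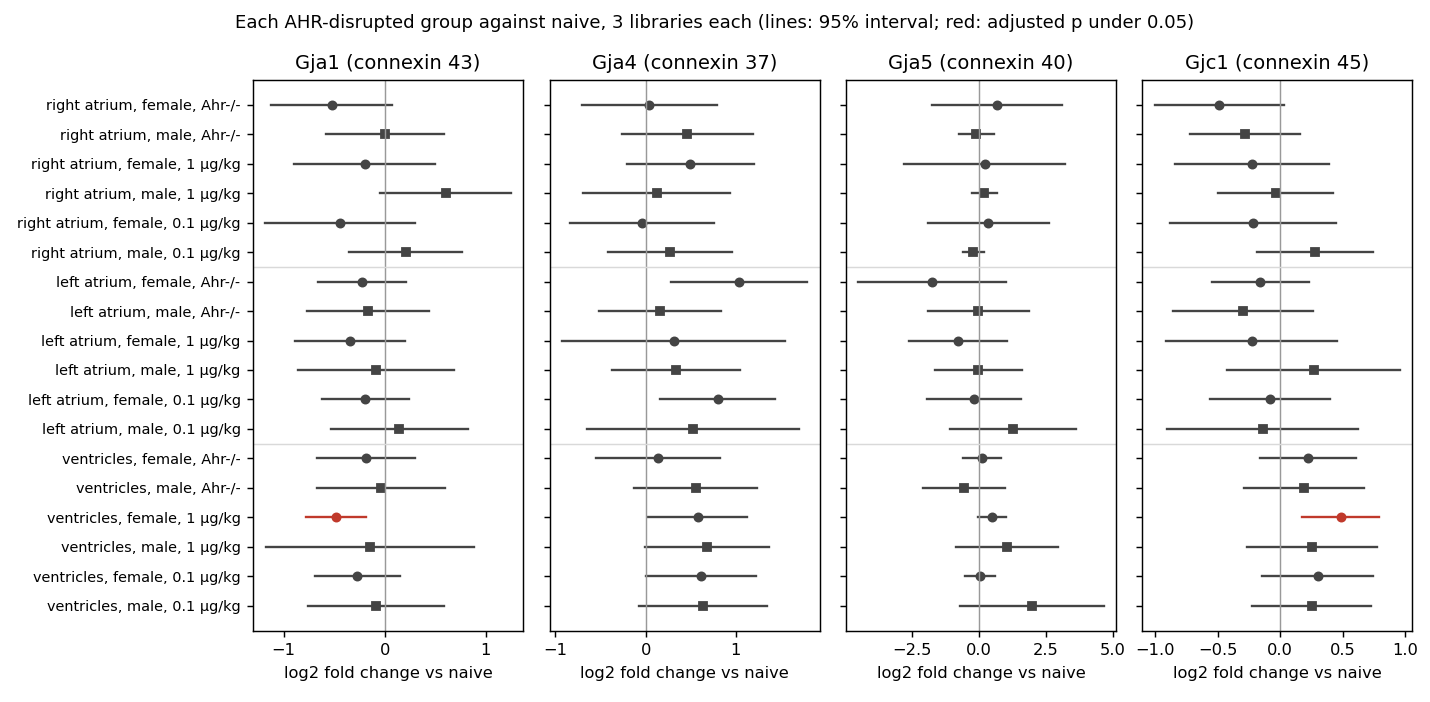
Log2 fold change against naïve of each connexin in the 18 comparisons, with 95% intervals; circles are females, squares males, 3 libraries per group, and red marks an adjusted p under 0.05. The 2 red points are Gja1 at -0.48 and Gjc1 at 0.48 in female ventricles at 1 μg/kg; Gja4 lies above 0 in 17 of 18 comparisons, and Gja5 has the widest intervals.

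Over the 18 comparisons Gja4 lay above naïve in 17, with log2 fold changes of -0.04 to 1.04 and a median of 0.48, none of them called. Comparisons share naïve libraries, so these signs are not independent. The highest value, 1.04 in female Ahr-/- left atrium (adjusted p = 0.36), came from 12.0, 13.1 and 6.61 CPM against 6.52, 3.84 and 5.14 CPM, and the 2 high ones are libraries 23 and 24, whose Myl4 is at a ventricular level. Gja1 lay below naïve in 14 of 18 comparisons, at -0.53 to 0.60 with a median of -0.18. Gjc1 ranged from -0.49 to 0.48 and Gja5 from -1.77 to 1.96, where 1.96 was male ventricles at the low dose, a group whose 3 libraries all have Myl4 above 100 CPM.

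With both sexes in a fit of the 24 libraries of a chamber, 6 against 6, 3 of 36 connexin values were called, all in ventricles. Over these 9 contrasts 2.76% of all gene values were called, with 15.1% at the high dose (6.34% higher and 8.79% lower) and 10.1% at the low dose (4.06% higher and 6.08% lower) in ventricles. Gja4 rose at the high dose by 0.61 on the log2 scale (SE 0.19, adjusted p = 0.037) and at the low dose by 0.62 (SE 0.19, adjusted p = 0.042). Gjc1 rose at the high dose by 0.36 (SE 0.12, adjusted p = 0.038), and its value at the low dose was 0.27 (SE 0.12, adjusted p = 0.12). In Ahr-/- ventricles the values of Gja4 and Gjc1 were 0.34 (adjusted p = 0.48) and 0.19 (adjusted p = 0.52), in a contrast in which 0.0459% of genes were called (0.0131% higher and 0.0328% lower).

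In male ventricles Gja4 was at 5.19, 5.33 and 4.11 CPM in naïve mice, 7.96, 7.23 and 6.13 in Ahr-/- mice, 7.73, 7.91 and 8.17 at the high dose and 6.79, 6.43 and 9.98 at the low dose. In female ventricles it was at 6.76, 8.30 and 4.89 CPM in naïve mice, 5.79, 10.4 and 5.42 in Ahr-/- mice, 11.2, 7.10 and 10.5 at the high dose and 12.8, 7.61 and 10.5 at the low dose. Of the libraries labelled male, 53, 59, 65 and 71 read female, and 45, 46, 53, 59, 65 and 71 have Myl4 above 100 CPM. The lowest male naïve value, 4.11 CPM, is library 53. Sex and chamber are thus in doubt for several of these values, and no contrast of the sexes in Gja4 can be read from them. In counts these levels are small, and the range of Gja4 over the series was 59 to 278 reads per library.

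Gjc1 in male ventricles was at 30.3, 28.3 and 21.8 CPM in naïve mice, 32.4, 28.5 and 29.8 in Ahr-/- mice, 36.4, 29.3 and 31.9 at the high dose and 30.9, 36.2 and 31.2 at the low dose. The female values at the low dose were 30.6, 31.2 and 40.5 CPM and those of Ahr-/- females 27.6, 31.6 and 34.9 CPM. The male Ahr-/- and high-dose libraries overlapped the naïve ones in Gjc1, and each male low-dose library has Myl4 above 100 CPM. Gja1 in male ventricles was at 775, 637 and 431 CPM in naïve mice and at 541, 866 and 293 CPM at the high dose, where 431 and 293 are libraries 53 and 65, which have high Myl4 and read female. The other male Gja1 values were 503 to 643 CPM in Ahr-/- mice and 521 to 700 CPM at the low dose.

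**Figure D5:**
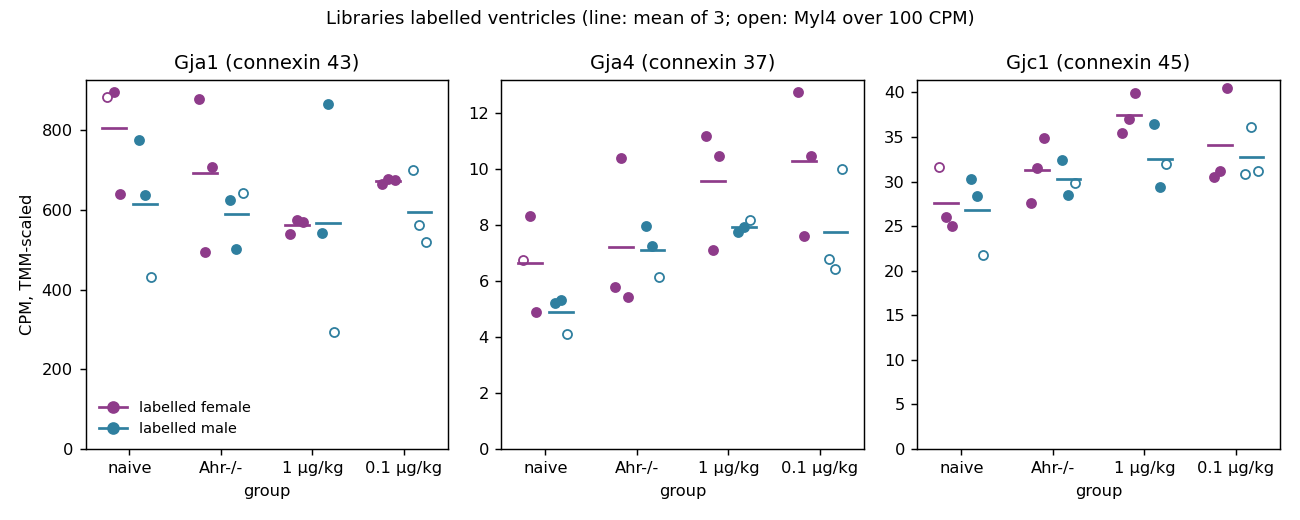
Gja1, Gja4 and Gjc1 in the 24 libraries labelled ventricles by condition, in TMM-scaled CPM; each point is a library, the line is the mean of 3, females are purple and males blue, and open points have Myl4 over 100 CPM. In females at 1 μg/kg Gja1 lies at 540 to 575 CPM under naïve values of 640 to 897. Gja4 lies at 4.11 to 5.33 CPM in naïve males and at 6.13 to 9.98 in the other males, with no male comparison called (edgeR adjusted p 0.40 to 0.83). In females Gja4 overlaps, at 4.89 to 8.30 CPM in naïve mice and 5.42 to 12.8 in the others. How many other genes separate the male groups was not counted. Libraries 53, 59, 65 and 71 are labelled male but read female.

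These calls in both sexes depended on which libraries entered. Without the 7 ventricular libraries with high Myl4, Gja4 stood at 0.57 (adjusted p = 0.11) and 0.69 (adjusted p = 0.145) at the high and low dose and Gjc1 at 0.37 (adjusted p = 0.088) at the high dose. Of the 24 libraries left out in turn, the call of Gja4 at the high dose was lost without 33, 34, 35, 41, 42, 43, 53, 54 or 66 (0.54 to 0.62, adjusted p 0.051 to 0.085), and at the low dose without 33, 34, 35, 38, 42, 46, 47, 53, 54, 71 or 72 (0.54 to 0.68, adjusted p 0.050 to 0.12). That of Gjc1 was lost without 36, 41, 43, 44, 53, 54 or 66 (0.30 to 0.35, adjusted p 0.065 to 0.087). Each value kept its direction. In libraries 1 to 48 alone the values were 0.44, 0.37 and 0.27, none called, with adjusted p of 0.19, 0.29 and 0.17.

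Gja5 in ventricles was not called with all libraries but was called at the high dose in settings with fewer libraries. With all libraries its log2 fold change with both sexes was 0.72 at the high dose (95% interval -0.44 to 1.88, adjusted p = 0.42) and 1.17 at the low dose (-0.017 to 2.35, adjusted p = 0.19). Without the 7 libraries with high Myl4 it was 0.94 at the high dose (0.43 to 1.46, edgeR adjusted p = 0.015), the 1 connexin value called in that fit. Of all genes, 17.7% were called in the same contrast. The levels of Gja5 were then 6.18 to 12.7 CPM with a median of 7.94 in 4 naïve libraries and 11.5 to 19.8 CPM with a median of 17.7 in 5 high-dose ones, which overlap. They were 10.9 to 13.4 CPM in 3 low-dose libraries and 7.98 to 17.7 CPM in 5 Ahr-/- ones. The libraries left out were chosen by a gene whose level moves with that of Gja5. In libraries 1 to 48, compared by sex, Gja5 was called at the high dose in male ventricles (1.36, adjusted p = 0.017, with 2 libraries a group) and in female Ahr-/- left atrium (-3.84, adjusted p = 8.6e-04), where both Ahr-/- libraries are the low-Myl4 libraries 23 and 24. The share of all genes called in these comparisons is not given here, so nothing particular to Gja5 can be read from them.

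Endothelial markers were read beside Gja4, whose product is known from endothelium. In ventricles their sum was 939 to 1377 CPM in naïve libraries, 1025 to 1436 at the high dose and 930 to 1563 at the low dose, and of 8 markers 0 were called at either dose by edgeR, with 5 of 8 above 0 at each. The 4 arterial endothelial markers summed to 55.0 to 88.2 CPM in naïve ventricles and to 54.6 to 82.2 and 64.0 to 90.8 CPM at the high and low dose. Smooth muscle markers ranged from 180 to 515 CPM in naïve ventricles, from 439 to 3906 at the high dose and from 368 to 1514 at the low dose, with 1 of 5 called higher at each dose. The part of any of these in the values of Gja4 was not tested.

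Lists of partners gave mixed directions in these ventricles, and their counts are read against the 15.1% of all genes called at the high and 10.1% at the low dose. Of the disc genes 3 were called higher and 3 lower at the high dose, with Nectin2 at 0.80 and Cav3 at 0.99 among the higher and Ctnna3, the alpha-T-catenin of the disc, at -0.95 among the lower (median over the list -0.20, all genes 0.03). At the low dose 2 were higher and 4 lower, with a median of -0.25 against -0.01. Of the transcription factors 3 were higher and 2 lower at the high dose, among them Hand2 at 0.80 and Mef2c at -0.47, and 1 each at the low dose, Nkx2-5 at 0.73 and Sp1 at -0.57, the latter count close to the share of all genes. Of the kinase and trafficking genes 1 was higher and 4 lower at the high dose, with Mapk3 at 0.75 and the ubiquitin ligases Nedd4 at -0.75 and Smurf2 at -0.67, and 1 was higher and 3 lower at the low dose. Without the 7 ventricular libraries with high Myl4, the disc genes had 3 higher and 5 lower, the transcription factors 3 and 2 and the kinase and trafficking genes 1 and 4 at the high dose, where 17.7% of all genes were called. At the low dose there were 0 and 1, 0 and 0, and 0 and 1 by edgeR, where 3.42% were called, and the genes that remained were Ctnna3 and Nedd4. No gene of any of the 4 lists was called in the 3 contrasts of the right or the 3 of the left atrium, and no connexin was either. In these the share of all genes called was 0.0188% for Ahr-/- (0.00626% lower), 0.156% for the high dose (0.0438% higher) and 0 for the low dose on the right side, and 0.0187%, 0.0999% and 0 on the left.

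No difference between the labelled sexes in the response was found for the connexins. In 9 models of sex by condition 0 of 36 connexin values were called by edgeR, and 0 had an unadjusted p under 0.05. Over all genes these models called 0 of 136478 values, with 2.53% at an unadjusted p under 0.05, so that this test made no call for any gene. In libraries 1 to 48 alone the same models called 629 of 135934 values, 519 of them for the high dose in ventricles and 110 for Ahr-/- left atrium, and again 0 of the connexins. For the high dose in ventricles the difference between the fold changes of females and males was -0.35 for Gja1 (95% interval -1.41 to 0.70) and 0.21 for Gjc1 (-0.32 to 0.74), intervals wide enough to hold the fold changes seen in females. DESeq2 called 0 of the 36 as well. In the ventricular models libraries 53, 59, 65 and 71 entered as male but read female. In the right atrial models libraries 50, 56, 62 and 68 entered as female but read male.

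The genes with the pattern most like each connexin were taken by Pearson r of log2 CPM over the 72 libraries, which share hearts, depth and chamber, among 16648 genes. Gja5 had the closest companions, with an r of 0.96 for Sbk2, 0.95 for Olfm1 and 0.94 for Podn, and its lowest r was -0.89 for Lpl (lipoprotein lipase). Over the residuals from group means Podn (0.94), Sbk2 (0.93) and Pam (0.92) led. Gja1 went with Tmem65 (0.80), Vdac1 (0.79), a channel of the outer mitochondrial membrane, and Pm20d2 (0.79), and against Pnp2 (-0.80). Its residuals went with Mapk8 (0.78), Osbp (0.73) and Phkb (0.72).

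Gjc1 went with Arhgef10l (0.76), P2ry2 (0.76), a purinergic receptor, and Yipf7 (0.72), and against Adh1 (-0.69), and over residuals with Arhgef10l (0.79), Pgf (0.78) and P2ry2 (0.76). Gja4 had the weakest likeness, with Mcrip2 (0.64), Lzts2 (0.64) and Mrpl38 (0.62), and -0.65 for Kif3b, and over residuals Gpr27 (0.68), Gm13304 (0.61) and Ccl21d (0.61), of which the last belong to a cluster of near-identical copies whose counts cannot be told apart. Among the connexins themselves r was -0.52 between Gja1 and Gja5, -0.44 between Gja5 and Gjc1, -0.37 between Gja4 and Gja5, 0.43 between Gja4 and Gjc1, 0.27 between Gja1 and Gjc1 and 0.03 between Gja1 and Gja4.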

How the data were processed

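Poly-A RNA of heart chambers was sequenced as single-end reads of 50 cycles on the Illumina HiSeq. Per the study's methods and processing notes, base calls were converted with CASAVA 1.8 and bcl2fastq and reads were aligned to mm10 with TopHat. The authors counted reads on coding regions in R and deposited 1 table of whole-number counts for 24237 Entrez genes and 72 libraries, with no normalization. The annotation release, the use of strand and the treatment of reads with several matches are not given in the sources used here. Symbols were found for 24162 genes, and the 75 without one held 3.89% of counts.

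Library totals ran from 11873417 to 28789382 counts with a median of 19231739. The limit in CPM for a gene without counts covers counting error only. Intervals of log2 differences rest on the SE of the edgeR fits, and so include the variation between libraries of a group. In each fit genes passed filterByExpr (minimum count 10, minimum total 15), and TMM factors, edgeR 4.0.16 robust quasi-likelihood tests and Benjamini-Hochberg adjustment over all genes tested followed in R 4.3.3. Chambers and sexes were compared in a fit of 72 libraries on 24 groups, each condition with naïve in fits of 6 libraries, in fits of the 24 libraries of a chamber, and in interaction models of 12. The SE of a log2 fold change is its size divided by the root of F. The methods name DESeq with a threshold of 0.0001, and DESeq2 1.42.0 was an alternative beside RLE scaling (size factors from gene ratios), scaling by totals, no filter, a term for the library series (1 to 48 or from 49), libraries 1 to 48 alone, naïve libraries alone, all 24 groups together, libraries left out by marker genes or in turn (20 of 72, drawn at random, for the largest fit), and exon length. The one by Bmp10 and the list counts without libraries in doubt were added after the data were seen. Log2 CPM for likeness used a prior count of 2. Of 72 pairs of libraries within groups, 0 agreed within sampling noise (lowest chi-square per degree of freedom 7.69). The fits were tested on simulated data. Promoter sequences and gene positions are from RefSeq (GRCm38.p6), and Gjc1 was named only.

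The connexins, the lists and the markers were chosen with earlier results of these data known. Named in the text are the 4 connexins, of each list the called genes with the smallest p (at most 3 per direction and contrast), and for likeness the 3 highest and the lowest r and the 3 highest over residuals. Samples were grouped by their labels.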

Additional observations from a re-analysis of the deposited data

How the results depend on the processing

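No paired analysis was possible because groups share no replicate numbers and no label ties libraries to a heart. Of the 2 calls against naïve, 1 was left with scaling by totals alone and 0 in a fit of all 24 groups, with or without the libraries whose Myl4 or sex-linked genes go against the label (17 of the 18 comparisons could be fitted without them), 4 were found in libraries 1 to 48 (Gja1 in female ventricles at the high dose, Gja5 in male ones, and Gja4 and Gja5 in female Ahr-/- left atrium), and 0 to 3 with each library left out in turn. Of the 3 calls with both sexes, 0 were left with scaling by totals, without the filter and in libraries 1 to 48. Without the libraries whose Myl4 goes against the chamber all 3 were lost and 1 other call was made, Gja5 in ventricles at the high dose, where 17.7% of all genes were called. With each library left out there were 0 to 3. Interaction calls stayed at 0 to 0 under the alternatives run. DESeq2 called both sets in the same numbers. In naïve libraries alone, ventricles minus right atrium was 0.52 for Gja1, -0.15 for Gja4, -2.27 for Gja5 and -0.14 for Gjc1, and ventricles minus left atrium 0.47 for Gja1, -2.36 for Gja5 and -0.15 for Gjc1, none called. With scaling by totals it was -0.090 for Gja4 and 0.031 for Gjc1 against the right and -0.024 for Gja4 against the left atrium. Without the filter Gjc1 was at 0.22 against the right atrium and not called (adjusted p = 0.0662), and 0.21 to 0.24 with libraries left out. Left minus right atrium changed sign for Gja1 in naïve libraries (0.050), without libraries against either label (0.033) and by Bmp10 (0.030), for Gja4 in libraries 1 to 48 (0.051) and for Gja5 without libraries against the chamber (0.013) and in naïve ones (0.090), and ran from -0.060 to 0.014 for Gja1 and -0.032 to 0.041 for Gja4 with libraries left out. Female minus male changed sign for Gja1 without libraries against either label (-0.032) and for Gja5 without libraries against the chamber (0.17) or either label (0.31), in naïve libraries (0.11) and by Bmp10 (0.25). Per kilobase of exon, mean levels in right atrium, left atrium and ventricles were 46.3, 45.7 and 62.2 CPM for Gja1, 4.20, 4.23 and 4.55 for Gja4, 5.45, 5.67 and 6.32 for Gjc1, and 13.0, 12.2 and 3.94 for Gja5. By exon length Gja5 and not Gja4 thus had the lowest mean in ventricles. Gja4 in female Ahr-/- left atrium was called in libraries 1 to 48 (1.29, edgeR adjusted p = 0.0283). Except by the construction of fits with fewer libraries, the cause was not tested. Levels of Gja4 rest on 59 to 278 reads a library.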
